A study of Homo sapiens with 6 samples.

Results

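The genes described here encode enzymes that build cholesterol and fatty acids, together with the proteins that set their transcription. The set holds 28 genes, chosen by gene name and function with earlier results of these data known. Of these, 18 are enzymes from acetyl-CoA to cholesterol and 5 belong to the SREBP control circuit. The others are the sterol carrier STARD4 and 4 genes of fatty acid synthesis. Of the 28, 26 had a probe set paired with that gene symbol alone and were measured, among 18417 genes measured in the same way. FDFT1 and HSD17B7 had no such probe set and were not analysed here.

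The RNA came from HCT 116, an established human colorectal carcinoma line, grown in serum-containing medium. All cells received a transient transfection of a double-stranded RNA oligo 48 h before harvest. In 3 samples, labelled control, the oligo was siGFP, whose target these cells lack, and in the other 3 it was siChe-1, directed against AATF (Che-1), a nucleolar protein that also acts in transcription. Each sample was hybridised to 1 whole-transcript Affymetrix array, so the comparison was 3 arrays against 3. The labels do not state that the samples of a group were separate cultures, and p-values therefore cover the spread between these arrays, which may be technical.

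Cholesterol is assembled from acetyl-CoA through mevalonate, isoprenoid phosphates, squalene and lanosterol. Its supply is held steady by SREBP transcription factors, made as membrane precursors in the endoplasmic reticulum. When sterols are scarce, SCAP escorts SREBPs to the Golgi, where proteases release the active fragment. When sterols are plentiful, the INSIG proteins hold SCAP back. SREBP-2, from SREBF2, acts mainly on cholesterol genes, and SREBP-1, from SREBF1, mainly on fatty acid genes. The 5′ region of many of these genes holds sterol regulatory elements with neighbouring CCAAT and GC boxes, which are read by SREBP, NF-Y and Sp1.

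The targeted gene went against the labels, so groups are given by label throughout. AATF read 7.55, 7.75 and 7.55 on the arrays labelled control and 8.53, 8.81 and 8.87 on those labelled siChe-1 (log2 RMA intensity), that is, higher where depletion was labelled (difference 1.12 ± 0.13, SE, limma adjusted p = 0.00122). Below, "higher" and "lower" describe the siChe-1 label against the control label, and all directions would turn if the labels were exchanged. Among all genes, 685 differed at a limma adjusted p under 0.05, and IFIT1, an interferon-induced gene named after its value was seen, was among them (11.7 ± 0.16 on arrays labelled control and 6.78 ± 0.07 on arrays labelled siChe-1, SD, n = 3 each). No list of such genes was counted here, and the part of IFIT1 in the results for the synthesis genes was not tested. The array of siChe-1 replicate 1 stood apart: its values correlated at 0.984 and 0.986 with the other arrays of its group (Pearson, over genes), which correlated with each other at 0.996, so results are also given without it. Epithelial markers were bright (EPCAM 10.4 ± 0.31 and KRT8 12.5 ± 0.12 on arrays labelled control, SD, n = 3 each), and the mean over 11 such markers was 8.20 to 8.24 on arrays labelled control and 8.14 to 8.22 on those labelled siChe-1. Of these, KRT19 was lower by 0.59 (limma adjusted p = 0.0171). KRT18 differed by -0.44 (limma adjusted p = 0.0680) and KRT8 by -0.39 (0.130), with groups that did not overlap. KRT18 was lower without siChe-1 replicate 1 (limma adjusted p = 0.0383). The list was not uniformly lower: 5 of the 11 differences were above 0 and 6 below (median -0.0041). Groups did not overlap for 2 higher and 3 lower epithelial markers (45.5% of the list, beside 24.0% of all genes). The mean over 7 leukocyte markers was 4.27 to 4.32 and 4.05 to 4.20, with PTPRC near the low end of the scale (2.41 ± 0.12 and 2.46 ± 0.16, SD, n = 3 each). CD68, also made by other cells, was the 1 leukocyte marker of 7 that passed the test (difference -1.56, limma adjusted p = 0.000553). The lower mean was not shared by all 7: 4 differences were above 0 and 3 below (median 0.047). Groups did not overlap for 2 higher and 2 lower leukocyte markers (57.1% of the list, beside 24.0% of all genes). No fibroblast marker of 8 and no hepatocyte marker of 5 passed by limma (1 of each list had an unadjusted p under 0.05, as did 17.7% of all genes). Their means were 3.96 to 4.09 and 4.04 to 4.32 for the fibroblast list, where the 4.32 was siChe-1 replicate 1 and the other arrays of its group read 4.04 and 4.08, and 3.64 to 3.81 and 3.55 to 3.77 for the hepatocyte list. siChe-1 replicate 1 was the highest array of its group for 7 of the 8 fibroblast markers, and the part of this in the results was not tested.

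Of the 26 measured synthesis genes, 3 were higher and none was lower, while 23 did not pass (limma, Benjamini-Hochberg over 18417 genes). The 3 were SCD, TM7SF2 and SREBF1, which lie at different points of lipid synthesis: fatty acid desaturation, a late sterol reduction and transcriptional control. Called genes made up 11.5% of the members and 3.72% of all genes, with 1.19% of all genes higher and 2.52% lower. When each array was centred on its median, the split was 2 higher and 1 lower, with SREBF1 not past the threshold and HMGCS1 lower. The median difference of the members was 0.075 on the log2 scale, and that of all genes was 0.0051. Of the 26 differences, 18 were above 0 and 8 below, between -0.71 (HMGCS1) and 0.75 (SCD). Over all genes, 9372 of 18417 differences were above 0. With centring on array medians, ACAT2, MVK, IDI1 and DHCR7 also fell below 0, so the split of the members by sign depended on the scaling. The arrays of the groups did not overlap for 9 of the 26 members (34.6%), 7 of them higher and 2 lower, beside 24.0% of all genes. As the members were chosen with earlier results of these data known, this share and the share called are descriptions only. In bulk RNA, fewer cells of a kind and less RNA per cell cannot be told apart, and this holds for each difference given here.

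**Figure D1:**
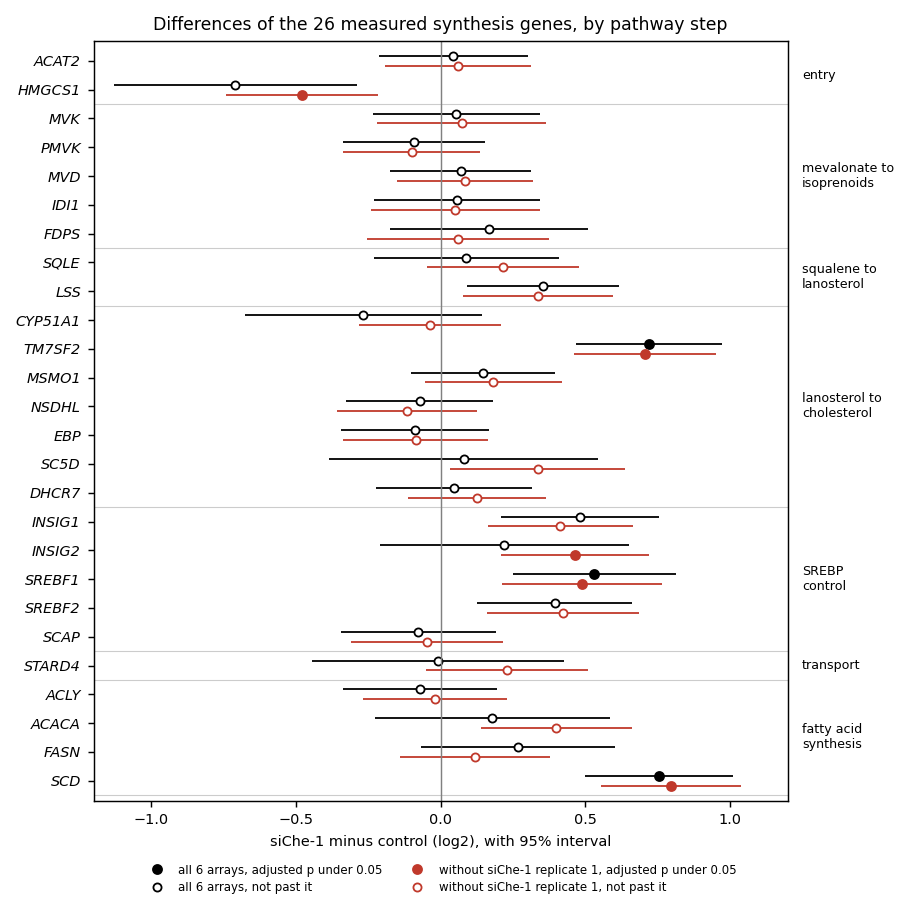
Difference of each measured gene, labelled siChe-1 minus labelled control (log2, x axis), with its 95% interval, ordered by pathway step. Black is the fit to all 6 arrays and red the fit without siChe-1 replicate 1; filled points passed an adjusted p of 0.05. SCD, TM7SF2 and SREBF1 are filled in both fits, and HMGCS1 and INSIG2 only in the fit without siChe-1 replicate 1.

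The entry to the pathway held the largest lower difference of the set, which did not pass the test. HMGCS1 encodes the cytosolic synthase that joins acetoacetyl-CoA and acetyl-CoA to HMG-CoA. It read 9.22, 9.44 and 9.28 on the arrays labelled control and 8.14, 8.75 and 8.92 on those labelled siChe-1. All 3 arrays labelled siChe-1 lay below all 3 labelled control, and siChe-1 replicate 1 was the lowest by far. The difference was -0.71 ± 0.19 (SE), with a 95% interval of -1.13 to -0.29 and limma adjusted p = 0.0718. Without siChe-1 replicate 1 the difference was smaller, at -0.48 ± 0.12 (SE), and passed (limma adjusted p = 0.0351). ACAT2, the cytosolic thiolase that makes acetoacetyl-CoA, differed by 0.04 with an interval of -0.21 to 0.30, and its groups overlapped.

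Between mevalonate and the isoprenoid phosphates, none of 5 enzymes passed by limma, and none had an unadjusted p under 0.05. MVK and PMVK phosphorylate mevalonate in turn, MVD makes isopentenyl diphosphate, IDI1 isomerises it and FDPS joins the units into farnesyl diphosphate. Their differences lay between -0.09 (PMVK) and 0.17 (FDPS), with a median of 0.056. FDPS, the gene with the smallest p of this step, read 8.17, 8.22 and 7.86 against 8.47, 8.02 and 8.28. The groups overlapped, and siChe-1 replicate 1 was the highest array (difference 0.17 ± 0.15, SE, interval -0.17 to 0.51, limma adjusted p = 0.635). FDPS also has 2 probe sets shared with other symbols, which were not used, and whether near-identical copies add to its signal was not tested. PMVK was the other gene of the set whose arrays labelled siChe-1 all lay below those labelled control, at 6.58, 6.53 and 6.58 against 6.69, 6.68 and 6.59. Its difference of -0.09 was smaller than its SE of 0.11. MVK (0.05), MVD (0.07) and IDI1 (0.06) had intervals from -0.24 at the lowest bound to 0.34 at the highest.

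From squalene to lanosterol, SQLE and LSS were measured. LSS, which cyclises oxidosqualene to lanosterol, read 7.01, 7.07 and 7.23 on the arrays labelled control and 7.49, 7.49 and 7.38 on those labelled siChe-1. Its groups did not overlap, but its difference of 0.35 ± 0.12 (SE, interval 0.09 to 0.62) did not pass over all genes (limma adjusted p = 0.140, and 0.108 without siChe-1 replicate 1). SQLE, the epoxidase before it, read 9.00, 9.02 and 8.79 against 8.77, 9.10 and 9.20. The lowest and the highest value of SQLE were both on arrays labelled siChe-1, and the difference was 0.09 (interval -0.23 to 0.41).

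Beyond lanosterol, 1 of 7 measured enzymes was higher and 6 did not pass. TM7SF2 encodes a sterol C14 reductase, a reaction that LBR can also carry out. TM7SF2 read 6.48, 6.41 and 6.46 on the arrays labelled control and 7.20, 7.24 and 7.07 on those labelled siChe-1. The groups were far apart relative to their spread (6.45 ± 0.03 and 7.17 ± 0.09, SD, n = 3 each). The difference was 0.72 ± 0.11 (SE), which is 1.65-fold, with an interval of 0.47 to 0.97 and limma adjusted p = 0.00672. Leaving out any 1 array kept TM7SF2 past the threshold, with differences of 0.69 to 0.77 and limma adjusted p between 0.00439 and 0.0463.

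CYP51A1, the lanosterol demethylase that acts just before TM7SF2, read 9.49, 9.52 and 9.37 against 8.73, 9.46 and 9.39. Replicates 2 and 3 of siChe-1 lay within the range of the control arrays, and replicate 1 lay well below it. The difference was -0.27 ± 0.18 (SE, limma adjusted p = 0.507), and -0.04 without replicate 1. A second, dimmer probe set of CYP51A1 read 7.35, 7.40 and 7.31 against 6.74, 7.47 and 7.19, with replicate 1 again the lowest. MSMO1, the C4 demethylating oxidase, had groups that did not overlap at a small difference of 0.15 (interval -0.10 to 0.40). NSDHL, which acts after it, differed by -0.07, EBP, the sterol isomerase, by -0.09, and DHCR7, which reduces 7-dehydrocholesterol to cholesterol, by 0.05. Among these 3 genes the groups overlapped and no interval reached beyond -0.35 or 0.32. SC5D, the desaturase, had the widest spread among the arrays labelled siChe-1 of any member: it read 7.01, 6.76 and 6.75 against 6.41, 7.02 and 7.33. Its difference was 0.08 ± 0.21 (SE), and 0.34 ± 0.14 without replicate 1 (limma adjusted p = 0.170).

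In the SREBP control circuit 1 of 5 genes was higher, with 4 not past the threshold and a median difference of 0.39. SREBF1 read 7.66, 7.62 and 7.79 on the arrays labelled control and 8.31, 8.32 and 8.04 on those labelled siChe-1. The groups did not overlap. The difference was 0.53 ± 0.13 (SE), or 1.45-fold, with an interval of 0.25 to 0.81 and limma adjusted p = 0.0491, close to the threshold. The call was lost without control replicate 1 (0.185), 2 (0.192) or 3 (0.112), or without siChe-1 replicate 2 (0.127) or 3 (0.0629), given as limma adjusted p. It was also lost when all probe sets were tested (0.119), with an intensity trend and robust prior (0.0568) and with centring on array medians (0.0706).

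SREBF2 read 7.79, 7.81 and 7.82 against 8.14, 8.37 and 8.10. The control arrays were nearly alike and all arrays labelled siChe-1 lay above them, yet the difference of 0.39 ± 0.12 (SE, interval 0.13 to 0.66) did not pass (limma adjusted p = 0.108, and 0.0538 without siChe-1 replicate 1). INSIG1, itself a well-known SREBP target, read 7.69, 7.78 and 7.61 against 8.31, 8.04 and 8.17. Its groups did not overlap either, and its difference of 0.48 ± 0.12 (SE, interval 0.21 to 0.75) lay just outside the threshold (limma adjusted p = 0.0620, and 0.0504 without siChe-1 replicate 1).

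INSIG2, its paralogue, read 7.77, 7.91 and 7.71 against 7.53, 8.19 and 8.33. Here replicate 1 was the lowest of all 6 arrays and replicates 2 and 3 were the highest. INSIG2 differed by 0.22 ± 0.19 (SE, limma adjusted p = 0.617) over all arrays and by 0.47 ± 0.12 without replicate 1, where it passed (limma adjusted p = 0.0353). SCAP, the escort protein, differed by -0.08 with an interval of -0.34 to 0.19. STARD4, which carries sterols between membranes and is encoded by another SREBP-responsive gene, read 7.32, 7.46 and 7.12 against 6.81, 7.52 and 7.54. Its difference was -0.01 ± 0.20 (SE), and 0.23 ± 0.13 without replicate 1 (limma adjusted p = 0.313).

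**Figure D2:**
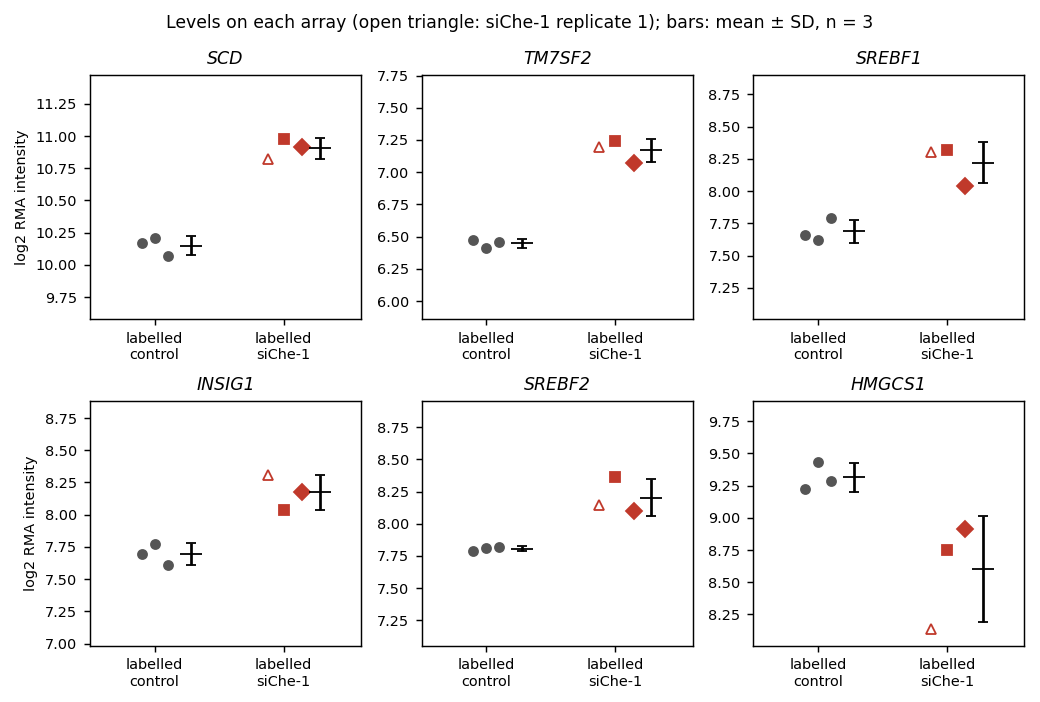
Log2 RMA intensity on each array (y axis, each panel spanning the same range of log2 units) for 6 genes of the set, by labelled group; bars are mean ± SD, n = 3, and the open triangle is siChe-1 replicate 1. The groups do not overlap in any panel, with HMGCS1 lower and the other 5 higher on the arrays labelled siChe-1; SCD, TM7SF2 and SREBF1 passed the test.

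Fatty acid synthesis held the member with the largest difference. SCD encodes stearoyl-CoA desaturase, which makes oleate from stearate. SCD read 10.17, 10.21 and 10.07 on the arrays labelled control and 10.82, 10.98 and 10.91 on those labelled siChe-1. The groups were separated by far more than the spread within either (10.15 ± 0.07 and 10.90 ± 0.08, SD, n = 3 each). The difference was 0.75 ± 0.11 (SE), or 1.69-fold, with an interval of 0.50 to 1.01 and limma adjusted p = 0.00543. It remained past the threshold when any 1 array was left out, at 0.71 to 0.80 (limma adjusted p between 0.00189 and 0.0418).

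The 3 enzymes upstream of SCD did not pass. FASN, fatty acid synthase, read 10.15, 9.96 and 10.18 against 10.66, 10.26 and 10.17. Replicate 1 of siChe-1 was the highest FASN array, and the difference of 0.27 ± 0.15 (SE, interval -0.07 to 0.60, limma adjusted p = 0.403) became 0.12 without it. ACACA, the carboxylase that makes malonyl-CoA, showed the opposite arrangement, reading 8.64, 8.71 and 8.65 against 8.40, 9.19 and 8.94. ACACA differed by 0.18 ± 0.18 (SE, limma adjusted p = 0.679), and by 0.40 ± 0.12 without replicate 1 (limma adjusted p = 0.0654). ACLY, which makes cytosolic acetyl-CoA from citrate, differed by -0.07 with an interval of -0.34 to 0.19.

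The siChe-1 arrays were not alike for these genes. Replicate 1 was the lowest of its group for 15 of the 26 members (57.7%) and the highest for 4, beside 38.7% and 43.6% of all genes. For 6 members (SC5D, INSIG2, STARD4, HMGCS1, CYP51A1 and ACACA, picked out by this gap) it read at least 0.5 below the mean of replicates 2 and 3, by 0.66 to 0.77. Such a gap was present for 10.3% of all genes. In each of the 6, replicate 1 lay below all control arrays, and in 4 of them (SC5D, INSIG2, STARD4 and ACACA) replicates 2 and 3 lay above all control arrays. Among the other 20 members, replicate 1 lay below all control arrays for 6, and replicates 2 and 3 lay above them for 10. Picking the 6 by the gap favours such positions, and their share over all genes was not counted. For SCD, TM7SF2 and SREBF1 the gap was -0.13, 0.05 and 0.13, and all 3 were called with and without replicate 1.

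**Figure D3:**
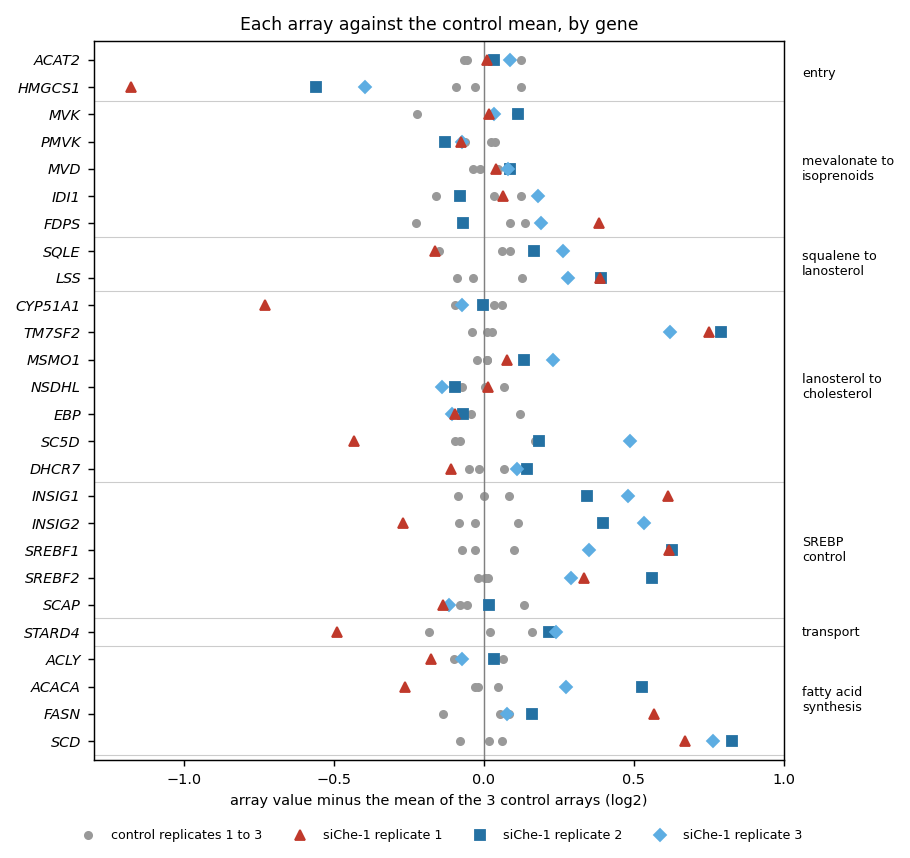
Value on each array minus the mean of the 3 arrays labelled control (log2, x axis) for the 26 measured genes, ordered by pathway step; grey points are the control arrays. Replicate 1 of siChe-1 (red triangles) lies to the left of the other siChe-1 arrays for HMGCS1, CYP51A1, SC5D, INSIG2, STARD4 and ACACA, while all 3 siChe-1 arrays lie together to the right for SCD and TM7SF2.

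Without siChe-1 replicate 1, 4 members were higher (SCD, TM7SF2, SREBF1 and INSIG2), 1 was lower (HMGCS1) and 21 did not pass. In that fit 8.50% of all genes were called, 4.01% higher and 4.48% lower. The median difference of the members was 0.12 and that of all genes -0.0049. By step, the medians with all arrays and without replicate 1 were -0.33 and -0.21 for the entry (2 genes). Its genes HMGCS1 and ACAT2 differed by -0.71 and 0.04 over all arrays, so this median describes neither. The medians were 0.056 and 0.061 for mevalonate to isoprenoids (5 genes), and 0.22 and 0.28 for squalene to lanosterol (2 genes). They were 0.048 and 0.13 for lanosterol to cholesterol (7 genes), 0.39 and 0.42 for SREBP control (5 genes), and 0.22 and 0.26 for fatty acid synthesis (4 genes).

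Most members that did not pass had narrow intervals. For 15 of the 23 uncalled members the 95% interval lay within 1.5-fold in either direction. For the other 8 (HMGCS1, LSS, CYP51A1, INSIG1, INSIG2, SREBF2, ACACA and FASN) a difference of 1.5-fold lay inside the interval. All 26 read well above the array medians of 4.95 to 5.05, the lowest single value being 6.34 (MVK, control replicate 1).

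The stretches upstream of the starts of SCD, TM7SF2, SREBF1, SREBF2 and HMGCS1 are shown for the following reasons. The first 3 were the called members, and HMGCS1 was the largest lower difference. SREBF2 held the single exact match to the sterol element core among the members with a sequence. RefSeq promoter sequences (GRCh38.p14) were given for 23 of the 26 measured members. Each line below gives the 250 bases before the annotated start, 5′ to 3′ on the gene's strand, with matches to 3 motifs in capitals: TCACNCCAC (the sterol regulatory element core), CCAAT and GGGCGG (the GC box), on both strands. The stretches are chr10:100346983-100347232 (+), chr11:65111622-65111871 (+), chr17:17836987-17837236 (-), chr22:41832855-41833104 (+) and chr5:43313413-43313662 (-, the more upstream of its 2 starts).
SCD: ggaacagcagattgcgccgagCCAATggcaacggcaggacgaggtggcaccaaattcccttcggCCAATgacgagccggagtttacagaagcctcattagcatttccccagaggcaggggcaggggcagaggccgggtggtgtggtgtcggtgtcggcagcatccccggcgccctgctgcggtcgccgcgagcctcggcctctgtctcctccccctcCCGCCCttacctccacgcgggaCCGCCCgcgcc
TM7SF2: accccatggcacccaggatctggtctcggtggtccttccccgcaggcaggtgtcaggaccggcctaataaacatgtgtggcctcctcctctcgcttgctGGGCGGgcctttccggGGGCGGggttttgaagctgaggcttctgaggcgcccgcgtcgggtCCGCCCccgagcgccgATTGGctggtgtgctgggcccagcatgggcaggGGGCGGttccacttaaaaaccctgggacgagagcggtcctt
SREBF1: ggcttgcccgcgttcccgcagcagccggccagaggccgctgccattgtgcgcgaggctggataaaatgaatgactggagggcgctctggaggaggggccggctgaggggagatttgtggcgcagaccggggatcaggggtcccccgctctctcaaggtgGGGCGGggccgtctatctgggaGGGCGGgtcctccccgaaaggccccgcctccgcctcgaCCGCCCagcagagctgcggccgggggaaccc
SREBF2: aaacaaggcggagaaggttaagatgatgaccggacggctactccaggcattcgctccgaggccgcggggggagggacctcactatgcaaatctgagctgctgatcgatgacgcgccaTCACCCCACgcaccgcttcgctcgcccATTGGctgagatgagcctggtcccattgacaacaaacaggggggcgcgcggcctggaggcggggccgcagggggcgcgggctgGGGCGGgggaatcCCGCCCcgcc
HMGCS1: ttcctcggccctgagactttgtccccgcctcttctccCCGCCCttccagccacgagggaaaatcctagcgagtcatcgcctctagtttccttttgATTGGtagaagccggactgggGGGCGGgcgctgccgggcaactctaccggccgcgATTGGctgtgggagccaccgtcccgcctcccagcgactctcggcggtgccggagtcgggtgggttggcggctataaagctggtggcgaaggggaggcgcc

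An exact match to the sterol element core was found in SREBF2 alone among the 23 members with a sequence. It started 133 bases before the start. The share was 4.35% of these members, resting on this gene alone, beside 1.09% of all 27305 genes with a promoter. Sites with other letters, or outside the stretches searched, were not looked for. The other members are therefore not shown to lack a sterol element. A CCAAT box was found in 18 of 23 members (78.3%, against 37% of all genes), and at least 2 in 13 members, against 11.5% of all genes. A GC box was found in 22 of 23 members (95.7%, against 46.2% of all genes). For these motifs, all genes are the 27305 with a promoter and not the 18417 measured. The members had to be measured on the array and these genes did not, so the 2 sides differ in kind. A gene counted as holding a motif when any of its annotated starts did, so genes with several starts had more chances. SCD held 2 CCAAT boxes, starting 229 and 186 bases before the start, and 2 GC boxes. TM7SF2 held 1 CCAAT box, 74 bases before the start, and 4 GC boxes. SREBF1 held 3 GC boxes and no CCAAT box in this window. HMGCS1, whose difference was in the other direction, held 2 CCAAT boxes and 2 GC boxes upstream of the start shown. No matches overlapped in the 5 stretches shown. Both the called and the uncalled members thus held these letters: the 5 members with no CCAAT box were CYP51A1, INSIG2, PMVK, SCAP and SREBF1.

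Few genes around the pathway, listed by function, passed the test, and an unadjusted p under 0.05, given for each list below, was reached by 17.7% of all genes. Of the lists, the counts of 3 of 17, 2 of 14, 2 of 15 and 4 of 20 lie near that share. Among 17 other sterol and isoprenoid enzymes none passed by limma (median 0.021, 3 with an unadjusted p under 0.05). FNTA, a subunit of protein farnesyltransferase, differed by -0.36 (limma adjusted p = 0.198) and PDSS1, of the ubiquinone side chain, by -0.31 (0.235). Their differences were -0.39 and -0.22 without siChe-1 replicate 1. LBR, which shares the C14 reductase step with TM7SF2 and was named after its value was seen, read 9.56, 9.37 and 9.40 against 9.20, 9.96 and 9.87. LBR differed by 0.23 ± 0.19 (SE, limma adjusted p = 0.582) and was higher without siChe-1 replicate 1, by 0.47 (limma adjusted p = 0.0310). It was the 1 gene of 17 called in that fit, where 8.50% of all genes were called.

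Among 14 other regulators of SREBP none passed by limma (median -0.085, 2 with an unadjusted p under 0.05). RNF145, a ubiquitin ligase of the sterol-sensing machinery, differed by -0.59 (limma adjusted p = 0.120), and FBXW7, which targets nuclear SREBP for degradation, by -0.54 (0.274). Of 31 genes of fatty acid elongation, desaturation and lipid assembly, 2 were lower and 0 higher, leaving 29 that missed the threshold (median 0.061). Called genes made up 6.45% of this list and 3.72% of all genes, with 2.52% of all genes lower. An unadjusted p under 0.05 was reached by 7 of the 31. ACSL5, an acyl-CoA synthetase, read 8.28, 8.29 and 8.53 against 7.13, 7.79 and 7.61, a 1.81-fold lower level (limma adjusted p = 0.0234). ELOVL1, an elongase of very long chain fatty acids, read 9.15, 9.04 and 9.39 against 8.53, 8.54 and 8.53, 1.58-fold lower (limma adjusted p = 0.0197). Both were opposite in direction to SCD, with groups that did not overlap. Neither call held without control replicate 1 or 3 or without siChe-1 replicate 3, when none of the 31 was lower, and 1 was lower without control replicate 2 or siChe-1 replicate 2. Without siChe-1 replicate 1, HSD17B12, an elongation reductase named after its value was seen, was 1.43-fold higher (limma adjusted p = 0.0197). In that fit 1 of the 31 was higher and 2 were lower, where 8.50% of all genes were called.

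None of 15 LXR targets and genes of sterol export and esterification passed by limma (median 0.085, 2 with an unadjusted p under 0.05). SOAT1, which esterifies cholesterol, differed by -0.49 (limma adjusted p = 0.169), and STARD5, a sterol carrier, by 0.35 (0.177). Their differences were -0.28 and 0.41 without siChe-1 replicate 1. None of 20 fatty acid oxidation genes passed by limma (median 0.11, 4 with an unadjusted p under 0.05). PDK4, a kinase that inhibits pyruvate dehydrogenase, differed by 0.50 (limma adjusted p = 0.0620), at a dim 3.73 ± 0.16 and 4.23 ± 0.09 (SD, n = 3 each) that is not shown to be above background. SLC25A20, the carnitine carrier, differed by -0.38 (limma adjusted p = 0.103). PDK4 and SLC25A20 differed by 0.45 and -0.33 without siChe-1 replicate 1. Without siChe-1 replicate 1, HADHA (0.44) and EHHADH (0.53), enzymes of beta-oxidation named after their values were seen, were higher (limma adjusted p = 0.0323 and 0.0487). These were the 2 genes of 20 called in that fit, where 8.50% of all genes were called.

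**Figure D4:**
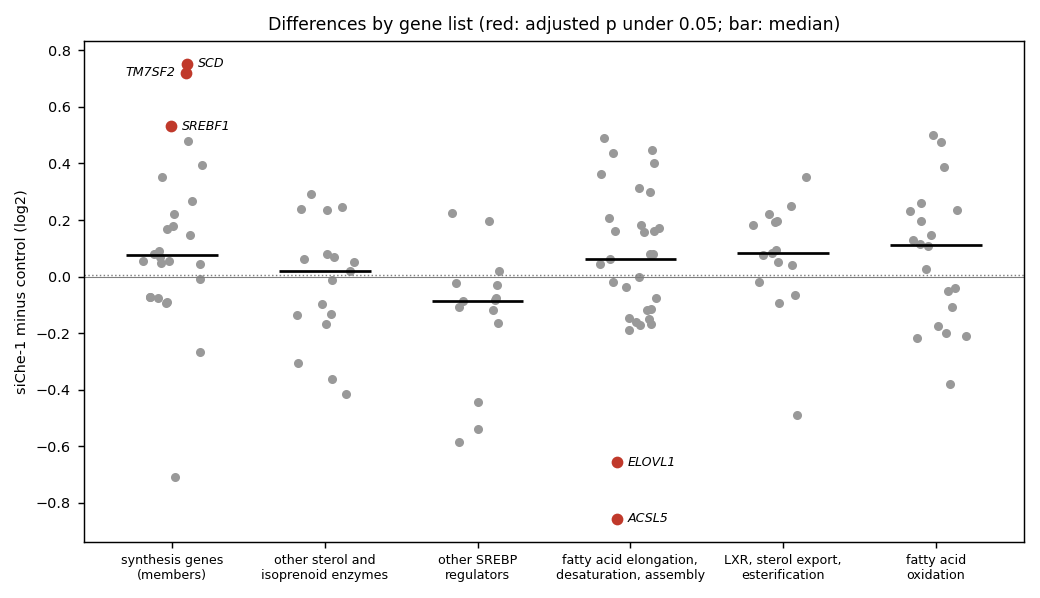
Difference of each gene, labelled siChe-1 minus labelled control (log2, y axis), for the synthesis genes and 5 lists of related genes; bars are medians, the dotted line is the median of all genes and red points passed an adjusted p of 0.05. SCD, TM7SF2 and SREBF1 are the red points above 0, and ELOVL1 and ACSL5 those below.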

How the data were processed

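The authors deposited log2 intensities of 6 Affymetrix whole-transcript arrays, which the submitters' processing notes credit to Affymetrix Expression Console and RMA, with version and settings not given in the sources used here. Such normalization brings the arrays' distributions close together, so shifts in the RNA content of whole cells are hidden. The deposited values were not fully equalised. Array medians were 5.00, 4.95 and 4.98 on arrays labelled control and 5.04, 5.03 and 5.05 on those labelled siChe-1. All medians of the siChe-1 label thus lay above those of the control label, and the part of this offset in small differences was not tested apart from centring. No detection calls were used, and precision is limited by having 3 arrays a group. Of 33297 probe sets, 19460 were paired with 1 gene symbol by the platform annotation, 1754 with several and 12083 with none; the brightest probe set per gene left 18417 genes. There were 0 value columns beyond those of the 6 samples.

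The comparison used limma 3.58.1 under R 4.3.3 (lmFit, eBayes, no covariate, no filter), with Benjamini-Hochberg adjustment over all genes and calls at an adjusted p under 0.05. Errors of a difference are moderated SEs with 95% intervals. Probe sets differ in affinity, so levels were not compared between genes. The fit was tested on simulated data. The members and lists were chosen with earlier results of these data known. Named by rule were AATF, all members, and per list up to 4 called genes with the largest change, or the 2 with the smallest p where none was called. Other normalizations, filters, priors, weights, thresholds, a replicate block and leaving out each array were tried. Promoter motifs were searched by exact letters.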

Additional observations from a re-analysis of the deposited data

How the results depend on the processing

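SCD and TM7SF2 were called higher, and AATF kept its direction and call, under all 8 alternative fits and in each fit without 1 array. The count of members higher was 7 with array weights and lay between 2 and 4 in the other alternatives. The count of members lower was 1 with centring on array medians, with array weights and with the replicate number as a block, and 0 to 1 when 1 array was left out. In each of these the lower member was HMGCS1, and the cause was not tested. The members' median difference was 0.12 with a repeated quantile normalization, 0.011 with centring, 0.12 with array weights, and 0.043 to 0.12 when 1 array was left out.

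The count of all genes called was 2865 with array weights, 1145 with the replicate block, 261 at an adjusted p under 0.01, and 272 to 1565 when 1 array was left out. Testing all 33297 probe sets called 408, which is a count of probe sets and not of genes. With centring, 20% of calls were higher, against 32.1%. Array weights gave 1 higher and 1 lower among the other sterol enzymes, 1 lower SREBP regulator, 5 higher genes of fatty acid elongation and assembly, 1 higher and 1 lower LXR gene, and 4 higher and 1 lower oxidation genes. The replicate block gave 2 lower SREBP regulators and 1 higher oxidation gene. The elongation list had 0 lower when all probe sets were tested and 0 at an adjusted p under 0.01. With 1 array left out it had 0 to 2 lower and 0 to 1 higher, the other sterol enzymes 0 to 1 higher, and the oxidation list 0 to 2 higher.

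Uncalled differences near 0 changed sign: STARD4 (0.037 with repeated quantile normalization, 0.19 with array weights) and, with centring, ACAT2 (-0.021), MVK (-0.0095), IDI1 (-0.0080) and DHCR7 (-0.016). When 1 array was left out, the ranges were -0.13 to 0.23 for STARD4, -0.056 to 0.11 for MVK, -0.023 to 0.12 for IDI1, -0.00031 to 0.13 for DHCR7 and -0.12 to 0.34 for SC5D. Same-numbered arrays did not deviate together in all pairs (correlations of deviations 0.23, 0.064 and -0.045 for replicates 1, 2 and 3), so the numbers were not taken as pairs. The dim end of the scale, with no detection calls, limits the related lists more than the members.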
